A study of Homo sapiens with 32 samples.

Results

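The 10 genes described here encode enzymes and cofactors that set DNA methylation and repressive chromatin: DNMT1, DNMT3A, DNMT3B, TET1, TET2, IDH1, IDH2, EZH2, EZH1 and ASXL1. They were chosen by name, as genes of this machinery, most of which are mutated in acute myeloid leukaemia (AML). Each was read from probe sets that carry its symbol alone, and where a gene had several the probe set with the highest mean over the lines stood for it. All 10 of the 10 genes had such a probe set, among 19775 genes on the array, and all 10 passed the filter on low values, as did 15455 genes in all. Levels are given as log2(signal + 16), where the signal is the intensity the authors deposited.

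Total RNA of 32 established human AML cell lines was measured on 1 Affymetrix array each, with no treatment. In 4 lines a cytokine was added to the medium: F-36P was kept in RPMI 1640 with 10% fetal bovine serum (FBS) and IL-3 at 5 ng/ml, and alpha-MEM was used for OCI-AML2, OCI-AML5 and OCI-AML3, at 10% or 20% serum with either SCF or GM-CSF. In 25 lines no cytokine was named, with 21 in RPMI 1640 at 10% or 20% FBS and 4 in IMDM at 20% FBS. For MOLM-13, MOLM-16 and MV4-11 no medium was given. HL-60 with PLB-985 and KG-1 with KG-1A are a line and its subline, so each pair was averaged in the tests, which left 30 units. The study set expression against response to PIM kinase inhibitors. Response was not used here, and the levels of the drug targets PIM1, PIM2 and PIM3 were used in its place.

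DNA methylation is a mark on cytosines of CpG dinucleotides. DNMT3A and DNMT3B place it on unmarked DNA, DNMT1 copies it to the new strand when a cell divides, and TET1 and TET2 oxidise it, a step towards its removal. TET enzymes need 2-oxoglutarate, which IDH1 and IDH2 make, and the mutant IDH enzymes of AML turn it into 2-hydroxyglutarate, which blocks TET enzymes. EZH2 and EZH1 are alternative catalytic subunits of Polycomb repressive complex 2 (PRC2), which methylates lysine 27 of histone H3, and ASXL1 is a cofactor of the BAP1 histone deubiquitinase that also affects PRC2. In blood cells, loss-of-function changes in DNMT3A, TET2 and ASXL1 are common early lesions of clonal growth.

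Signal differed between arrays in ways that bear on these genes. The median signal was 68.2 to 115.4 on 30 arrays, but 198.4 on NOMO-1 and 243.3 on GF-D8, where dim genes read higher. The GAPDH control ratio (3' end over 5' end), which goes up as RNA breaks down, was at most 1.24 on 24 arrays and 2.42 to 7.08 on GDM-1, HL-60, ML-2, MOLM-13, NB-4, THP-1, NOMO-1 and GF-D8. Of the blood cell markers, PTPRC and LYL1 lay above the median of all values, a log2 level of 6.73, in 32 of 32 lines and SPI1 in 29. Markers of other cell types were mixed: the B cell marker CD79A and the stromal marker COL1A1 lay above it in 32 lines, DCN in 21, COL1A2 and CD3D in 15, CD3E in 13, EPCAM in 9, MS4A1 in 8, CD3G in 2 and KRT19 in 1. The CD3D level reached 13.94 in KG-1A and EPCAM 13.26 in OCI-M2. The part of such signal in the results was not tested.

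DNMT3B had the widest range of the 8 members that lay above 6.73 in every line (the plot of levels by line). Over the lines the range was 50.2-fold for DNMT3B, 20.8-fold for DNMT3A, 13.4-fold for IDH1, 12.9-fold for EZH2, 8.85-fold for IDH2, 8.29-fold for ASXL1, 8.26-fold for DNMT1 and 4.76-fold for EZH1. No fold is given for TET2 and TET1, which lay under 6.73 in SH-2 and in PL-21, where the pseudocount sets the value. The SD over the 30 units was 1.67 for DNMT3B, larger than that of 90.3% of tested genes, and 0.58 for EZH1, larger than that of 20.9%. With 1 array per line the spread within a line is unknown. The difference between a line and its subline was the nearest measure of it, and ordering among lines closer than that is not resolved. The GAPDH ratio was 7.08 on HL-60 and 0.93 on PLB-985. In that pair, RNA quality and spread within the line cannot be told apart.

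**Figure D1:**
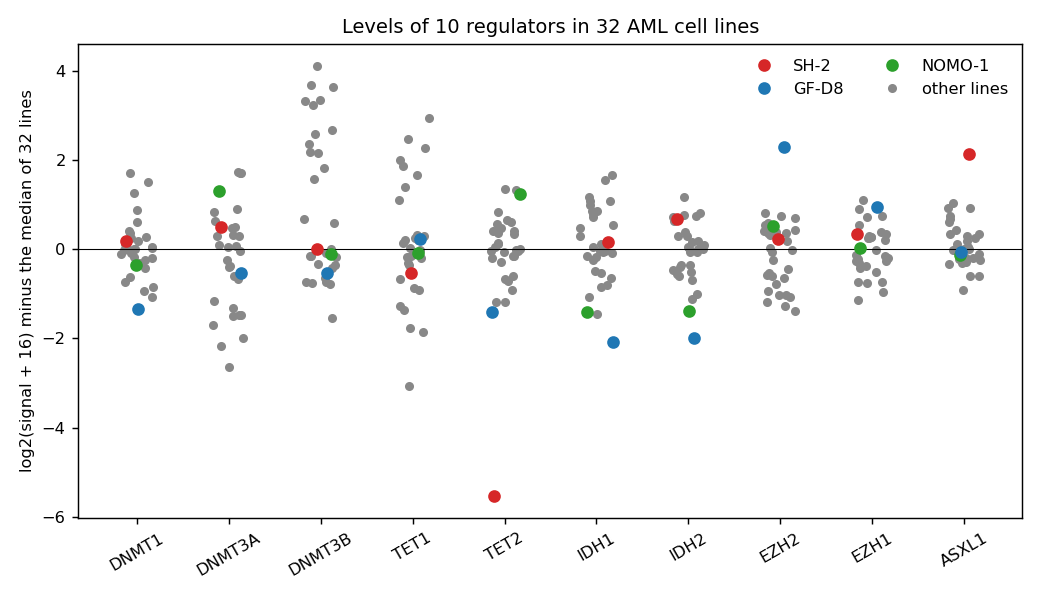
Each point is 1 of 32 AML cell lines; the x axis lists the 10 genes and the y axis gives log2(signal + 16) minus that gene's median over the lines. SH-2 (red) sits at -5.54 for TET2 and above the other lines for ASXL1, GF-D8 (blue) is highest for EZH2, and DNMT3B has a long upper tail.

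DNMT1, the copying methyltransferase, was high in every line. Its log2 level (probe set 201697_s_at) was 11.27 in GF-D8, 12.62 at the median and 14.32 in OCI-M2. OCI-M2, MOLM-16 at 14.11 and NB-4 at 13.88 stood above the other 29 lines, the next being HEL at 13.49. F-36P at 11.53 and FKH-1 at 11.69 were at the low end with GF-D8. HL-60 and PLB-985 differed by 0.22 and KG-1 and KG-1A by 0.19, and of the 496 pairs of lines 21% differed by no more than the larger of these.

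Most of the genes most like DNMT1 over the units were on chromosome 19, where DNMT1 lies. By Pearson's r over the 30 units the most similar tested genes were KEAP1, the sensor of oxidative stress, with r = 0.865 (rho = 0.781), and CDC37, a co-chaperone of HSP90, with r = 0.863 (rho = 0.803). Both are on chromosome 19, as were 13 of the 20 most similar genes, while 7.25% of tested genes are on that chromosome. The immediate tested neighbours, EIF3G, a translation initiation factor subunit, and S1PR2 on the other side, had r of 0.758 and 0.488. The 10 tested neighbours ran from -0.148 for COL5A3 to 0.785 for MRPL4, a mitochondrial ribosomal protein. Their median r was 0.205, against -0.045 over all tested genes. These r values describe lines that share arrays and scaling, and they carry no test.

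DNMT3A, a de novo methyltransferase, was spread evenly. Its log2 level (222640_at) was 7.70 in KG-1A, 10.35 at the median and 12.08 in F-36P. KG-1A, KG-1, HL-60, SHI-1, SKM-1, FKH-1, PLB-985, GDM-1 and ML-2 lay at 9.18 or below and the next line, OCI-M1, at 9.69, a gap of 0.51 that is no larger than the 0.53 between HL-60 and PLB-985. HNT-34 and KASUMI-1, both at 12.06, were next to F-36P. OCI-AML3, which is known to carry a DNMT3A mutation, was at 10.98, rank 26 from the lowest of 32, so the transcript was not low there. A dimmer probe set, 218457_s_at, followed the chosen one (r = 0.885 over 30 units), while 244428_at did not (r = 0.0813). The SD of DNMT3A fell to 0.69 when its 3 probe sets were averaged, against 1.08 for the chosen one. The most similar genes were PFDN5 (r = 0.576) and MLLT10 (r = 0.552), and 0 of the 20 most similar were on chromosome 2, where DNMT3A lies.

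DNMT3B, the other de novo enzyme, was high in 13 lines and low in 19. Its log2 level (220668_s_at) was 7.77 in PL-21, 9.30 at the median and 13.42 in HNT-34. DNMT3B had only 1 probe set with its symbol alone, so these levels could not be checked on another. The 13 lines above the widest gap were HNT-34, GDM-1, KMOE-2, NB-4, KG-1, HEL, KG-1A, FKH-1, MOLM-16, OCI-M2, SET2, MO7E and F-36P, the lowest of them at 10.86. The next line was SHI-1 at 9.98, a gap of 0.89, which exceeds the difference between KG-1 and KG-1A (0.64) and between HL-60 and PLB-985 (0.12). In a bulk sample, fewer cells that express a gene and less RNA per cell cannot be told apart. The most similar genes were FAM30A, a non-coding RNA gene (r = 0.770, rho = 0.639), and HES1, a repressor induced by Notch (r = 0.769, rho = 0.702). DNMT3B and DNMT3A did not move together: KG-1 and KG-1A had the lowest DNMT3A and were among the lines of high DNMT3B, while KASUMI-1 was high in DNMT3A and at 9.22 in DNMT3B.

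**Figure D2:**
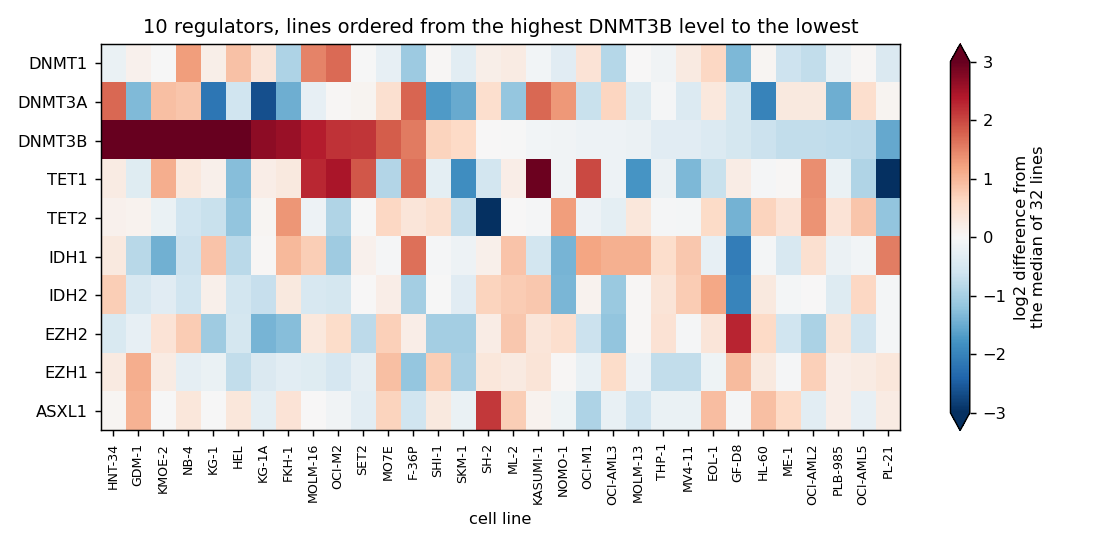
Colour gives log2(signal + 16) minus each gene's median over 32 lines for the 10 genes (rows) in each line (columns), with lines ordered by DNMT3B; colours end at 3 in either direction. The 13 lines of high DNMT3B fill the left side, and the other rows do not follow that order.

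TET1, a methylcytosine dioxygenase, ranged from 5.64 in PL-21 over a median of 8.70 to 11.63 in KASUMI-1 (228906_at). KASUMI-1, OCI-M2 at 11.16, MOLM-16 at 10.97, OCI-M1 at 10.69, SET2 at 10.56, F-36P at 10.35 and OCI-AML2 at 10.10 were above 10. PL-21, the 1 line under 6.73, lay 1.20 below the next lines, SKM-1 at 6.84 and MOLM-13 at 6.93. The sublines differed by 0.16 and 0.06, and 8.47% of pairs of lines by no more than the larger of these. The other probe set, 214862_x_at, had its extremes in the same lines and r = 0.831 with the chosen one. The most similar genes were ANKRD26, mutated in a hereditary thrombocytopenia (r = 0.722, rho = 0.731), which is on chromosome 10 as TET1 is, and the potassium channel gene KCNJ8 (r = 0.689).

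TET2, the dioxygenase most often mutated in myeloid neoplasms, was near the bottom of the scale in SH-2. Its log2 level there (227624_at) was 4.25, from a signal of 3, while the other lines ran from 8.38 in GF-D8 over a median of 9.80 to 11.14 in OCI-AML2. The gap of 4.13 between SH-2 and the next line is wider than the 0.73 between KG-1 and KG-1A, though its size depends on the pseudocount, since SH-2 lay under 6.73. The other 2 probe sets do not bear on it: 235461_at lay above 6.73 in 7 of 32 lines (4.22 in SH-2 and 4.41 to 7.75 in the others) and 1569385_s_at in 13 (5.41 in SH-2 and 5.08 in PL-21, the lowest). Probe set 1569385_s_at was highest on NOMO-1 at 9.79, with GF-D8 at 9.45, the arrays of high median signal. Over 15455 tested genes, 26 (0.168%) had a gap this wide below the next line in any line, and 4 had it in SH-2. The flanking genes were not low in SH-2: CENPE, a kinetochore motor, was at 10.90 in SH-2 against a median of 10.64 in the other lines, and PPA2, a mitochondrial pyrophosphatase, at 12.77 against 11.96. SH-2 grew in IMDM, and its GAPDH ratio and median signal were within the range of the intact arrays. The most similar genes, ZSCAN9 (r = 0.817) and CERS6 (r = 0.792), had lower rho, of 0.442 and 0.381. The part of SH-2 in these r values was not tested.

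SH-2 also stood out for ASXL1, for which it was the highest line. Its log2 level (212237_at) was 12.52 in SH-2, while the other lines ran from 9.47 in OCI-M1 to 11.44 in GDM-1, with 10.40 as the median of all 32. SH-2 stood 1.08 above GDM-1, more than the 0.72 between HL-60 and PLB-985. All 6 ASXL1 probe sets had SH-2 as the highest line, at 12.09, 12.52, 11.06, 12.38, 12.10 and 11.96. Among the 10 tested neighbours on chromosome 20, POFUT1, the fucosyltransferase of Notch receptors, was also highest in SH-2 (9.57 in SH-2 against a median of 8.27). From the lowest of 32, SH-2 ranked 30 for PLAGL2 and MAPRE1, 27 for TM9SF4 and 23 for COMMD7. It ranked 19 and 16 for the adjacent KIF3B and NOL4L, 17 for DNMT3B, and 3 and 2 for CCM2L and C20orf203. KASUMI-1, which is known to carry an ASXL1 mutation, was at 10.50, rank 19. TET2 and ASXL1 had the strongest correlation of the 45 pairs of members (r = -0.489), but it rests on SH-2: rho was 0.00512, and r was 0.0561 without SH-2 and GF-D8.

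**Figure D3:**
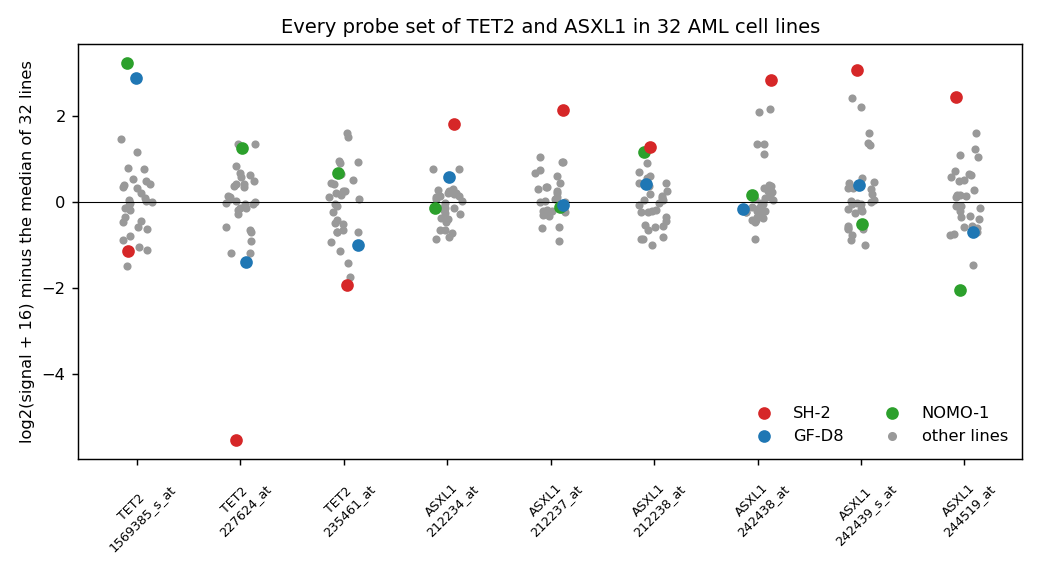
Each column is a probe set of TET2 (3) or ASXL1 (6), each point 1 of 32 lines, and the y axis gives log2(signal + 16) minus the probe set's median. SH-2 (red) is far below the other lines on TET2 probe set 227624_at, the other 2 being dim in most lines, and highest on all 6 for ASXL1, while NOMO-1 (green) and GF-D8 (blue) are highest on TET2 probe set 1569385_s_at.

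IDH1 and IDH2 are the cytosolic and the mitochondrial NADP-dependent isocitrate dehydrogenase. IDH1 (201193_at) was at 10.48 in GF-D8, 12.56 at the median and 14.23 in F-36P, with PL-21 next at 14.11. IDH2 (210046_s_at) was at 10.34 in GF-D8, 12.32 at the median and 13.48 in EOL-1, with KASUMI-1 next at 13.13. The lines with the least of either included the 2 arrays of high median signal, GF-D8 and NOMO-1 (11.17 for IDH1 and 10.94 for IDH2). Their joint variation rested on these arrays, since r between IDH1 and IDH2 was 0.353 over 30 units and 0.0203 without them. KG-1 and KG-1A differed by 0.83 in IDH1 and 0.84 in IDH2, so 46.8% and 63.3% of pairs of lines were not resolved by that measure. The most similar genes were IQGAP1 (r = 0.760) for IDH1 and CTCF (r = 0.763) for IDH2, and without NOMO-1 and GF-D8 these were 0.636 and 0.631.

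EZH2, the PRC2 enzyme of dividing cells, was highest in GF-D8 at 13.43 (203358_s_at). The other lines ran from 9.75 in KG-1A to 11.96 in ML-2, and the median of all 32 was 11.14. GF-D8 thus lay 1.48 above the next line, on the array with the highest median signal. EZH2 had only 1 probe set with its symbol alone, so this could not be checked on another. Low levels were seen in KG-1A, FKH-1 at 9.87, OCI-AML3 at 9.96, KG-1 at 10.08, SKM-1 at 10.11 and SHI-1 at 10.12. SKM-1, rank 5 from the lowest of 32, is known to carry an EZH2 mutation. A relation of the mutation to the level was not tested. EZH2 varied with the log2 GAPDH ratio (r = 0.511 over 30 units). The most similar genes were POLD1, a subunit of DNA polymerase delta (r = 0.849, rho = 0.826), and TMUB1 (r = 0.804), which is on chromosome 7 as EZH2 is. Of the 20 most similar genes 5 were on chromosome 7, which holds 4.70% of tested genes.

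EZH1, the PRC2 enzyme of resting cells, varied least. Its log2 level (32259_at) was 8.68 in F-36P, 9.83 at the median and 10.93 in GDM-1. The widest gap between neighbouring lines was 0.22, within the 0.24 between KG-1 and KG-1A. Its probe sets were not alike: 203249_at had r = 0.776 with the chosen one, and 239198_at had r = 0.0379. EZH1 and EZH2 are alternative subunits, yet neither this pair nor any other pair of members reached an absolute r of 0.5, and the median absolute r of the 45 pairs was 0.134.

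Promoters are shown for the members whose window holds a match to the E2F site, bound by factors that switch on genes of DNA replication, because the relation to cell division is given next. The words TTTCGCGC, TTTGGCGC, TTTCCCGC and TTTGCCGC were sought on both strands. RefSeq windows on GRCh38.p14 run over 300 bases, with the annotated start site at position 251, and 3.31% of 35116 such windows held a match. Among the members a match was found in DNMT1 at position 249 (chr19:10194904-10195203, minus strand), in 1 of the 2 EZH2 windows at position 252 (chr7:148884242-148884541, minus strand) and in EZH1 at position 136 (chr17:42744991-42745290, minus strand). The 3.31% is a share of windows, and several members had more than 1 window. The number of members with a match therefore cannot be set against it. Capitals mark the match. A match is a string of letters and does not show binding.
DNMT1: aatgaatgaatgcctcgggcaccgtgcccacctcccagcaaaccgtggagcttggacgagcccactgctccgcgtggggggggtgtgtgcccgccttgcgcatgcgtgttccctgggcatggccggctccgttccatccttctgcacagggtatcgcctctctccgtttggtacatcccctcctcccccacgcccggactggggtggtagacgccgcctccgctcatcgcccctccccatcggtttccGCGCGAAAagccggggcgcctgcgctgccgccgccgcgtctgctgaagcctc
EZH2: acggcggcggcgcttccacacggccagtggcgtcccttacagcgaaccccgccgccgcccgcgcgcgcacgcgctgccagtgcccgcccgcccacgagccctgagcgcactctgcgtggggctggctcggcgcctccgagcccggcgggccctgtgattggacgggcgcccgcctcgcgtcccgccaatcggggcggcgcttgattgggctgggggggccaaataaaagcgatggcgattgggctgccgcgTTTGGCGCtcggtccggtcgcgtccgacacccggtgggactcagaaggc
EZH1: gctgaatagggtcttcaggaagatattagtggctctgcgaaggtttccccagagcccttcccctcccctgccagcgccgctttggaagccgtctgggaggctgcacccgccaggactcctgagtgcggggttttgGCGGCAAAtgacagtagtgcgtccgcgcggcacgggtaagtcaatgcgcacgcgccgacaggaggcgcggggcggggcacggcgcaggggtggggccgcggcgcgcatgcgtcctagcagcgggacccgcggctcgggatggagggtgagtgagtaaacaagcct

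The next question was whether the members vary with how strongly a line expresses cell division genes. For the cell cycle score, 22 genes such as MKI67 and CDK1 were each centred on their mean log2 level over the units and then averaged. It ran from -0.86 in GF-D8 to 0.70 in EOL-1. DNMT1 and IDH2 rose with this score. DNMT1 had a slope of 1.17 ± 0.23 log2 units per unit of score (SE, limma over 30 units, adjusted p = 0.00294), and IDH2 one of 0.84 ± 0.27 (adjusted p = 0.0388). Of the 10 members 2 were called higher and 0 lower, beside 13% of all 15433 genes called in either direction (5.51% higher and 7.54% lower). The median slope was 0.23 over the members and -0.21 over all tested genes.

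In the plot of DNMT1 against the score, DNMT1 was 11.27 in GF-D8 and 11.69 in FKH-1, the lowest 2 units by score, and 13.23 in EOL-1, the highest. OCI-M2, MOLM-16 and NB-4, the lines richest in DNMT1, lay above the other units of like score. The DNMT1 call held without any 1 unit, with slopes from 1.04 to 1.23. The score itself varied with the log2 median signal of the array (r = -0.657). With that median as a covariate, an alternative chosen after seeing the data, the DNMT1 slope was 1.21 and its adjusted p 0.0810.

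The IDH2 call held under 4 of 10 alternatives. It was lost with quantile normalization (0.71, adjusted p = 0.201), the mean of both IDH2 probe sets (0.65, adjusted p = 0.101), 32 lines as units (0.77, adjusted p = 0.0508), the array median as a covariate (0.43, adjusted p = 0.674) and without arrays of high GAPDH ratio (0.32, adjusted p = 0.688). Among single units it was lost without GF-D8 (slope 0.60, adjusted p = 0.240), NOMO-1 (adjusted p = 0.0921), EOL-1 (0.0838), SH-2 (0.0557), OCI-AML3 (0.0557), MV4-11 (0.0517), GDM-1 (0.0504) or ML-2 (0.0503). Without both NOMO-1 and GF-D8 the slope was 0.44 (adjusted p = 0.463). The only IDH2 promoter window searched held no E2F match, and 3.31% of all windows held one. Other start sites of IDH2 were not searched, so nothing follows from this for the slope.

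EZH2, often taken as a gene of dividing cells, did not pass (slope 0.27 ± 0.35, adjusted p = 0.629), and its value turned on GF-D8, which had the lowest score and the highest EZH2. Without NOMO-1 and GF-D8 its slope was 1.00 (adjusted p = 0.0689). TET2 had a slope of -1.12 ± 0.50 and EZH1 one of -0.56 ± 0.25 (adjusted p = 0.121 and 0.118), while DNMT3A, DNMT3B, TET1, IDH1 and ASXL1 had adjusted p from 0.472 to 0.970. Leaving out SH-2, the TET2 slope was -0.56 (adjusted p = 0.221 by limma), and the ASXL1 slope went from 0.29 to 0.08. With each array centred on its median, IDH1 (0.83, adjusted p = 0.00879) and ASXL1 (0.57, adjusted p = 0.00456) also rose, while the slopes of EZH1 (0.08) and TET2 (-0.0154, adjusted p = 0.976) were near 0.

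**Figure D4:**
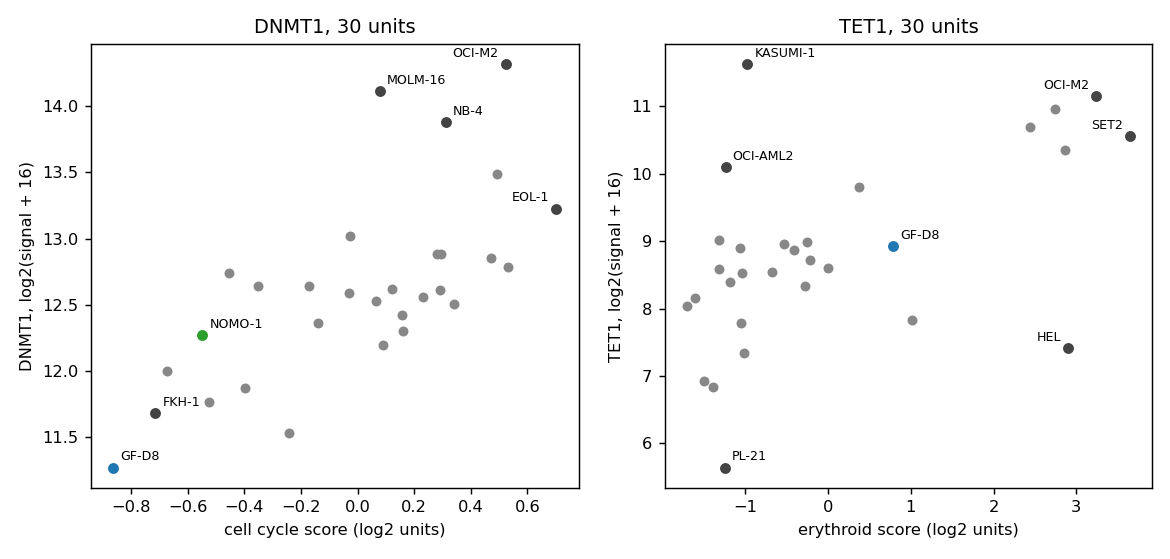
The left panel plots the DNMT1 level against the cell cycle score and the right panel the TET1 level against the erythroid score, both as log2 values with 1 point for each of 30 units. DNMT1 is lowest in GF-D8 and highest in OCI-M2, and TET1 is above 10 in 5 of the 6 units with an erythroid score above 2.4, HEL being the exception, and also in KASUMI-1 and OCI-AML2.

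Of the related regulators, 34 were listed and 31 tested. With the cell cycle score 4 of the 31 passed, beside the 13% of all tested genes. Of these 2 rose, PHF19, a PRC2 accessory protein (1.26 ± 0.37, adjusted p = 0.0267), and IDH3A, a subunit of the NAD-dependent isocitrate dehydrogenase (0.87 ± 0.27, adjusted p = 0.0334). In the same list 2 fell, PHF1, a paralogue of PHF19 (-0.72 ± 0.23, adjusted p = 0.0398), and KDM6A, a demethylase that removes the PRC2 mark (-1.71 ± 0.56, adjusted p = 0.0428). The median slope of the 31 was 0.26, against -0.21 over all tested genes. By group, 0 of 11 DNA methylation genes, 3 of 11 PRC2 genes, 0 of 4 ASXL and BAP1 genes and 1 of 5 IDH genes passed.

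Erythroid features differ between AML lines, and TET1 rose with them. The erythroid score was taken over 13 genes, such as KLF1 and ALAS2, and ran from -1.71 in EOL-1 to 3.65 in SET2. TET1 had a slope of 0.44 ± 0.13 log2 units per unit of score (limma, 30 units, adjusted p = 0.0202). The units of highest score had 10.56 in SET2, 11.16 in OCI-M2, 7.41 in HEL, 10.35 in F-36P, 10.97 in MOLM-16 and 10.69 in OCI-M1. HEL was thus low for TET1 in spite of its score, and KASUMI-1, with a score of -0.98, had the highest TET1. Of the 10 members 1 was called higher and 0 lower, beside 10.6% of 15442 genes called (6.27% higher and 4.37% lower), and the median slope was 0.01 over the members and -0.00364 over all tested genes.

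The TET1 call was lost without OCI-M2 (slope 0.40, adjusted p = 0.0681), MOLM-16 (0.41, adjusted p = 0.0547) or SET2 (0.44, adjusted p = 0.0518). With the mean of both TET1 probe sets the slope was 0.31 (adjusted p = 0.104), and leaving out the 8 arrays with a high GAPDH ratio gave 0.44 (adjusted p = 0.0525). None of the 3 TET1 windows held AGATAA, a word bound by erythroid transcription factors, which occurs on either strand in 10.3% of windows. Most windows lack this word, and only 3 were searched, so nothing follows from its absence for the slope.

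The other members did not pass with the erythroid score. DNMT3B had a slope of 0.41 ± 0.16 (adjusted p = 0.110), with 11.45 in SET2, 11.47 in OCI-M2 and 12.52 in HEL, but 13.42 in HNT-34 and 12.99 in GDM-1, whose scores were below 0. IDH2 had -0.17 ± 0.07 (adjusted p = 0.151), and the other 7 had adjusted p from 0.271 to 0.998. Among the 31 related regulators 1 passed, beside the 10.6% of all tested genes (4.37% lower): UHRF1, which brings DNMT1 to newly copied DNA, fell (-0.32 ± 0.07, adjusted p = 0.00155). In the DNA methylation group 1 of 11 slopes was positive (median -0.13) and in the PRC2 group 8 of 11 (0.04). In the ASXL and BAP1 group it was 1 of 4 and in the IDH group 1 of 5 (both -0.06). Of the members 6 of 10 slopes were positive, and the median over all tested genes was -0.00364.

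With the PIM genes, the targets of the drugs the study was about, 0 of 10 members passed. The background was 0.00647% of 15454 genes called with PIM1, 1.48% with PIM2 (0.725% higher and 0.757% lower) and 0.569% with PIM3 (0.278% higher and 0.291% lower). At an unadjusted p under 0.05 there were 0 members of 10 with PIM1, 1 with PIM2 and 2 with PIM3, and 1100, 2996 and 2838 of all genes. The member with the lowest p with PIM1 was IDH1, at 0.14 ± 0.07 log2 units per log2 unit of PIM1 (adjusted p = 0.722). With PIM2 it was EZH1, at -0.32 ± 0.12 (adjusted p = 0.139), and with PIM3 it was EZH2, at 0.61 ± 0.23 (adjusted p = 0.151). The EZH2 slope was 0.19 without the arrays of high GAPDH ratio and 0.29 with that ratio as a covariate, and PIM3 varied with the log2 ratio (r = 0.604). The scaling mattered for PIM2, since EZH1 fell with quantile normalization (-0.35, adjusted p = 0.0243), and with median centring DNMT1 (0.50, adjusted p = 0.00941), IDH1 (0.58, adjusted p = 0.0148) and IDH2 (0.42, adjusted p = 0.0357) rose. Of the 31 related regulators 0 passed with any of the 3.

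**Figure D5:**
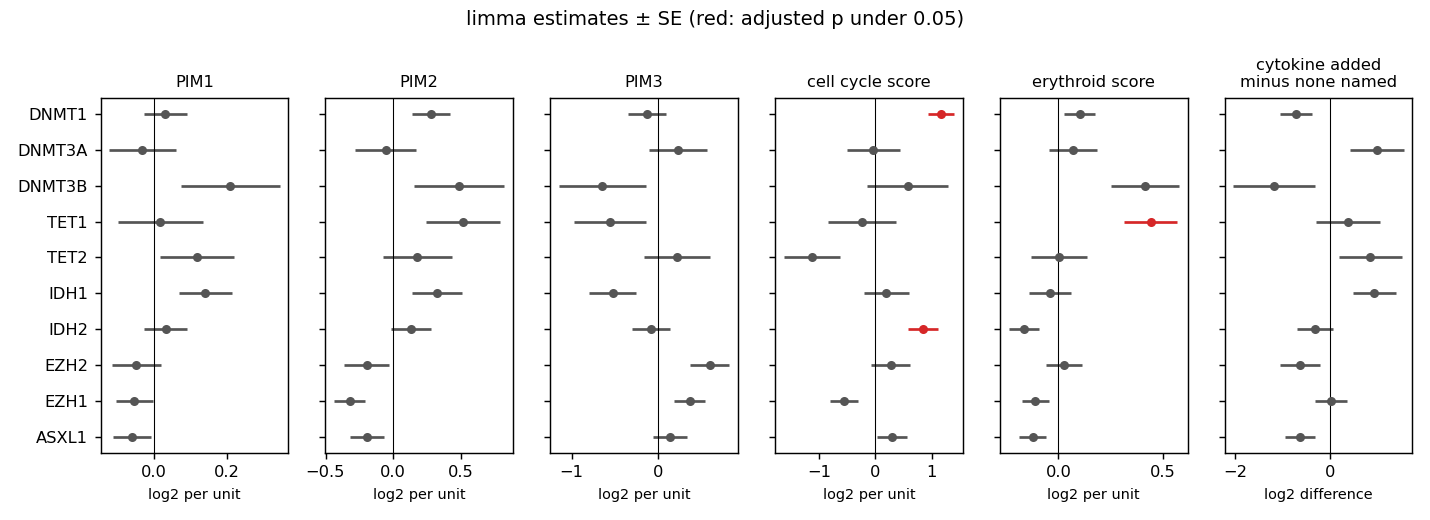
Points are limma estimates for the 10 genes and bars their SE, in log2 units per unit of each PIM level or score over 30 units and, in the last panel, as the log2 difference of 4 lines with an added cytokine minus 23 units with none named. Red marks an adjusted p under 0.05, seen for DNMT1 and IDH2 with the cell cycle score and for TET1 with the erythroid score.

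Lines grown with an added cytokine were set against units with none named, 4 against 23, and 0 of 10 members passed, as did 0 of 15455 genes (0%; 878 had an unadjusted p under 0.05 by limma, 2 of them members). DNMT1 was at 11.53 in F-36P, 11.77 in OCI-AML3, 11.88 in OCI-AML2 and 12.64 in OCI-AML5, against 11.27 to 14.32 with a median of 12.59 in the units with none. The groups overlapped, with a difference of -0.71 ± 0.34 (adjusted p = 0.869). IDH1 was at 14.23, 13.64, 13.04 and 12.47 in F-36P, OCI-AML3, OCI-AML2 and OCI-AML5, against 10.48 to 14.11 with a median of 12.44, a difference of 0.94 ± 0.45 (adjusted p = 0.869). DNMT3A was at 12.08, 10.98, 10.64 and 10.85 in the same lines, against 7.94 to 12.06 with a median of 10.39, a difference of 1.00 ± 0.57 (adjusted p = 0.906). ASXL1 averaged 10.05 ± 0.18 in lines with a cytokine and 10.67 ± 0.61 in the others (SD, n = 4 and 23; adjusted p = 0.882 by limma). The other 6 had adjusted p from 0.915 to 0.991. Cytokine and medium cannot be told apart in 3 of the 4 lines, which were those in alpha-MEM.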

How the data were processed

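Total RNA of 32 AML cell lines was measured on Affymetrix arrays with 54675 probe sets. The authors deposited linear intensity values per probe set, which come from Affymetrix Expression Console per the submitters' processing notes; version and summarization method are not given in the sources used here. Each array's trimmed mean (2% off either tail) came to between 500 and 500.1. No detection calls were used.

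Values were transformed to log2(signal + 16) and not rescaled. GEO's platform annotation gave 1 symbol to 41097 probe sets, several to 1801 and none to 11777 (62 of these controls), and symbols were updated by gene ID to RefSeq. A gene was tested if above a log2 level of 6.73, the median of all values, in at least 3 units. The members and gene lists were chosen with earlier results of these data known. Some listed genes are not reported here; 13 of 16 erythroid and 22 of 22 cell cycle genes entered the scores.

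limma 3.58.1 in R 4.3.3 (lmFit, eBayes with trend) gave slopes or differences over all tested genes in 6 comparisons, two-sided, with Benjamini-Hochberg adjustment and 0.05 as threshold. Errors after ± are standard errors unless marked SD. Since each line was hybridised once, a p-value here reflects only how lines differ, and the number of arrays limits precision. Named genes were the 10 members, related regulators that passed, and the 2 genes with the highest r for each member; chromosomal neighbours, and lines known to carry mutations, were chosen after values were seen. The slope model was tested on simulated data for PIM1 only, with noise drawn independently for each gene. The score, covariate and cytokine models were not simulated. Alternatives changed pseudocount, scaling, probe set choice, filter, units, arrays and covariates.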

Additional observations from a re-analysis of the deposited data

How the results depend on the processing

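Of 550 member values recomputed under other settings, 501 kept their direction and call, 32 changed sign, 9 lost a call and 8 gained one; the cause of each change was not tested unless the setting itself shows it. No paired analysis was possible because replicate numbers follow accession order only. Every sign change was in a value that had not passed.

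With quantile normalization the genes called numbered 3 with PIM1, 1737 with PIM2 (1 member, EZH1), 1056 with PIM3 and 298 with the cell cycle score (1 member), and slopes changed sign for DNMT3A (0.0225) and IDH1 (-0.0337) with the cell cycle score and TET2 (-0.00483) with the erythroid score. With each array centred on its median they numbered 2 with PIM1, 4087 with PIM2 (3 members), 46 with PIM3 and 5939 with the cell cycle score (4 members). Signs then changed with PIM2 for DNMT3A (0.15) and ASXL1 (0.0713), with PIM3 for DNMT1 (0.38), IDH1 (0.15) and IDH2 (0.50), with the cell cycle score for DNMT3A (0.41), TET1 (0.29) and EZH1 (0.0768), and with the erythroid score for IDH1 (0.0471). With a pseudocount of 64, TET2 changed sign with the erythroid score (-0.0390). With no filter, 22 genes were called with PIM3.

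With the mean of a gene's probe sets 2 genes were called with PIM1, 32 with PIM3 and 1260 with the cell cycle score, and 0 members with the erythroid score. Signs changed for TET2 (-0.0249, PIM2), IDH2 (0.14, PIM3), IDH1 (-0.11, cell cycle, and 0.00564, erythroid) and TET2 (-0.0585, erythroid). TET2 was then called lower with the cell cycle score (-1.14, adjusted p = 0.0402 by limma). That mean takes in 2 probe sets that are dim in most lines. Of these, 1569385_s_at was highest on NOMO-1 (9.79) and GF-D8 (9.45), arrays of high median signal with scores of -0.55 and -0.86. With 32 lines as units 2 genes were called with PIM1, 540 with PIM3, and 1 member with the cell cycle score; signs changed for IDH2 (0.0138, PIM3) and TET2 (-0.00751, erythroid).

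Without arrays of GAPDH ratio above 2, genes called numbered 2 with PIM1, 121 with PIM2, 0 with PIM3, 104 with the cell cycle score (1 member) and 4 with an added cytokine, and 0 members were called with the erythroid score; signs changed for IDH2 (-0.0449, PIM2; 0.29, PIM3), ASXL1 (-0.00345, PIM3) and IDH1 (-0.79, cell cycle). Without NOMO-1 and GF-D8 they numbered 2, 31 and 211 with PIM1, PIM3 and the cell cycle score (1 member); signs changed for IDH2 (-0.0178, PIM2; 0.12, PIM3), DNMT1 (0.00897, PIM3), DNMT3A (0.0653, cell cycle) and IDH1 (-0.48, cell cycle). With the log2 GAPDH ratio as a covariate 16 genes were called with PIM2 and 0 with PIM3, 2 members with the erythroid score (IDH2 added, -0.21), and IDH2 changed sign with PIM3 (0.20). With the log2 array median as a covariate, chosen after seeing the data, 46 genes and 0 members were called with the cell cycle score, and DNMT3A (0.0407) and IDH1 (-0.85) changed sign.

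Leaving out 1 unit gave 1 to 2 members called with the cell cycle score and 0 to 1 with the erythroid score. Over all genes the counts ran from 339 (without GF-D8) to 2543 (without ME-1) with the cell cycle score, 0 (without OCI-M1) to 404 (without KMOE-2) with PIM2 and 3 (without NB-4) to 403 (without NOMO-1) with PIM3. Without 1 cytokine line, 0 to 1 genes were called in that comparison, and the EZH1 difference was 0.44 without F-36P, -0.18 without OCI-AML2, -0.0237 without OCI-AML5 and -0.12 without OCI-AML3.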
